A study of Homo sapiens with 6 samples.

Results

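The protein-coding CEP genes were examined in human HT1080 fibrosarcoma cells, an established line, with 3 libraries from GPR56 knockout (KO) cells and 3 libraries from wild-type (WT) cells. The rule took every protein-coding row whose symbol is CEP followed by a digit, and found 36 genes among 58735 in the table. The rule reads no expression value, but the family itself was selected on the KO and WT FPKM values of these libraries. All KO and WT values below are therefore a description, and the calls carry no weight as a test of the family. GPR56 (approved symbol ADGRG1) is an adhesion G protein-coupled receptor, and the KO cells were made with CRISPR-Cas9. Both genotypes were grown in serum-containing DMEM, and the sample descriptions of both carry the name of the solvent DMSO. How many KO clones were sampled, and whether replicates came from separate cultures, is not stated, so the spread behind each p-value is that between libraries and could be technical.

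CEP proteins are named for the centrosome, the organelle that nucleates microtubules and, as a basal body, templates the primary cilium. The centrosome holds a pair of centrioles, which duplicate once per cell cycle under the kinase PLK4. CEP proteins build the new centriole, carry the appendages that dock the mother centriole to the membrane, tether the centrosomes and organise the surrounding material. The name marks a place in the cell and not a shared fold, so the members are mostly unrelated in sequence.

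FPKM values are reads divided by gene length in kilobases and by a library size factor. Multiplied back, they gave 16955111 to 17276269 reads per KO library and 16410352 to 16461752 reads per WT library. ADGRG1 had 2.68, 2.54 and 2.58 FPKM in KO libraries, against 6.61, 6.07 and 6.87 FPKM in WT libraries, and the groups did not overlap. The mesenchymal markers VIM, FN1, SPARC, CD44, S100A4 and LGALS1 summed to 1627 to 1729 FPKM in KO libraries and 1358 to 1386 FPKM in WT libraries. By contrast, 5 epithelial markers summed to at most 0.934 FPKM in any library and 5 haematopoietic ones to at most 0.44 FPKM, with CDH1 and PTPRC at 0 throughout.

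CEP genes called lower in KO libraries outnumbered those called higher. Of the 36 genes, 33 reached the expression filter of a mean of at least 1 FPKM and entered a limma fit over all 12000 genes that did so, with Benjamini-Hochberg adjustment and a threshold of 0.05. In that fit 18 of the 33 were called lower in KO, 2 were called higher and 13 were not called. Over all tested genes 22.4% were called lower and 21.0% higher, 43.4% in all. The median log2 fold change was −0.27 for the 33 genes and −0.0055 for all tested genes, as KO minus WT on the log2(FPKM + 1) scale, on which the changes of low genes are understated. All 3 KO libraries lay below all 3 WT libraries for 20 of the 33 genes (28.3% of all tested genes) and above them for 3 (26.4%). RNA of whole cultures was measured, so fewer cells that express a gene and less RNA per cell cannot be told apart.

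**Figure D1:**
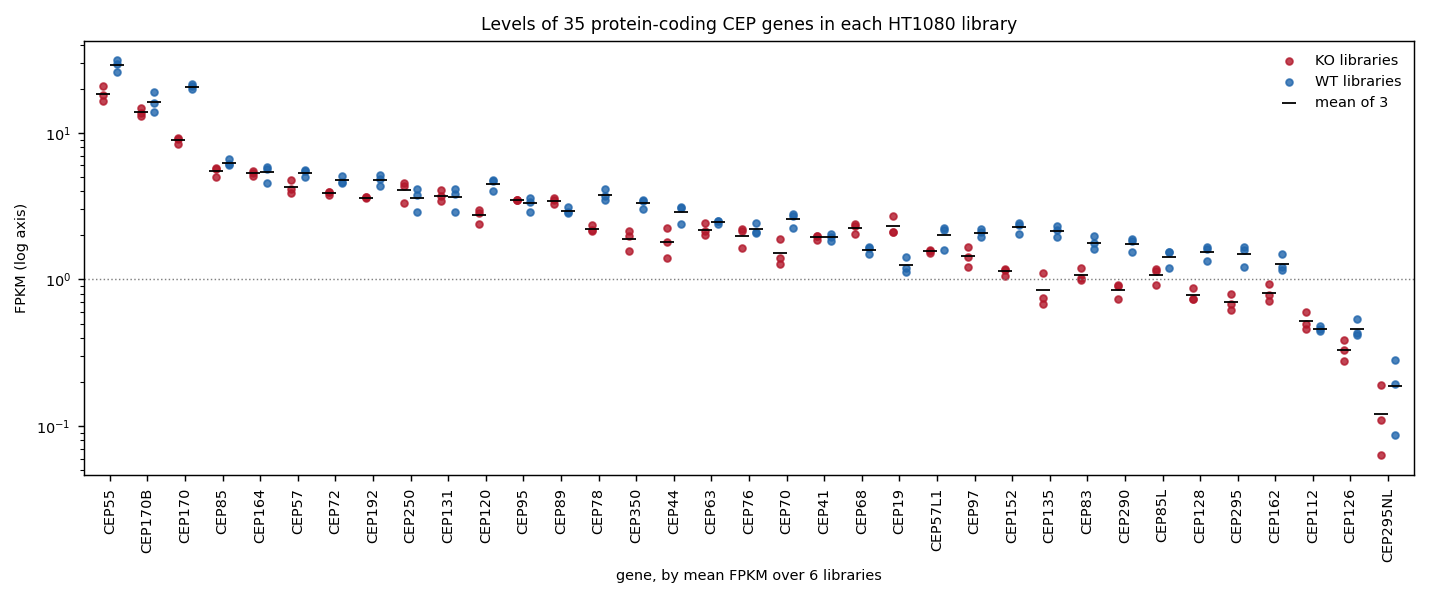
FPKM on a log axis for 35 of the 36 protein-coding CEP genes, ordered by mean level, with the 3 KO libraries in red to the left and the 3 WT libraries in blue to the right of each gene's tick and a bar at each mean. CEP55, CEP170B and CEP170 stand above the others, and CEP112, CEP126 and CEP295NL lie under the dotted line at 1 FPKM.

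The levels per kilobase of gene differed widely. CEP55, CEP170B and CEP170 led with means over the 6 libraries of 23.7, 15.1 and 14.8 FPKM, followed by CEP85 at 5.86 FPKM. At the filter, CEP162 lay just inside with a mean of 1.05 FPKM and CEP112 just outside with 0.491 FPKM. CEP112 had 81, 62 and 65 reads in KO libraries and 64, 58 and 60 reads in WT libraries. CEP126, which takes part in forming the cilium, had 54, 39 and 45 reads in KO libraries and 74, 57 and 59 reads in WT libraries. CEP295NL had 9, 3 and 5 reads in KO libraries against 9, 4 and 13 in WT libraries, and 7.18% of its exonic bases overlap TIMP2, an abundant gene on the same strand. None of these 3 was tested.

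The genes of centriole duplication and centriole length held no member that was called higher. Of 12 such genes 8 were called lower and 4 were not called, with a median log2 fold change of −0.34. Over all tested genes 22.4% were called lower and 21.0% higher. CEP135, which joins the cartwheel of the new centriole to its microtubules, had 0.742, 0.680 and 1.11 FPKM in KO libraries, against 2.30, 2.18 and 1.95 FPKM in WT libraries. Every KO value was under every WT value, and the log2 fold change was −0.77 (SE 0.11), a WT to KO ratio of 2.54. These levels rest on 101 to 159 reads per KO library and 280 to 336 reads per WT library. CEP152, a scaffold that recruits PLK4 to the centriole wall, had 1.16, 1.06 and 1.19 FPKM in KO libraries and 2.35, 2.43 and 2.03 FPKM in WT libraries. The KO values lay close together, all under the lowest WT value, and the log2 fold change was −0.61 (SE 0.09).

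The partners of CEP152 in PLK4 recruitment moved less. CEP192, which also gathers the pericentriolar material, averaged 3.61 ± 0.04 FPKM in KO libraries and 4.79 ± 0.40 FPKM in WT libraries (SD, n = 3 each here and below), and was called lower with a log2 fold change of −0.33. CEP63, the binding partner of CEP152, was at 2.19 ± 0.22 FPKM in KO libraries and 2.47 ± 0.07 FPKM in WT libraries and was not called.
Among genes of centriole elongation and maturation, CEP120 was called lower, at 2.73 ± 0.30 FPKM in KO libraries and 4.49 ± 0.43 FPKM in WT libraries. CEP295, needed for the new centriole to become a centrosome, was called lower too, at 0.698 ± 0.087 FPKM in KO libraries and 1.49 ± 0.24 FPKM in WT libraries. CEP44, which acts in the same conversion, averaged 1.81 ± 0.41 FPKM in KO libraries and 2.86 ± 0.40 FPKM in WT libraries, a call that was lost when KO 1, KO 2, WT 1 or WT 2 was left out.
CEP97, which caps the centriole together with CCP110, and CEP57, which links centrioles to pericentriolar material, were called lower by less. CEP97 averaged 1.43 ± 0.22 FPKM in KO libraries and 2.09 ± 0.13 FPKM in WT libraries, and CEP57 averaged 4.26 ± 0.44 and 5.34 ± 0.31 FPKM in KO and WT libraries. Either call was lost when KO 2, KO 3, WT 1 or WT 2 was left out, with adjusted p of 0.0560 to 0.107. The other genes of this group, CEP85, CEP57L1 and CEP76, had log2 fold changes of −0.17, −0.22 and −0.10 and were not called. CEP85, which acts with STIL in cartwheel assembly, had 5.73, 5.63 and 5.02 FPKM in KO libraries and 6.65, 6.12 and 6.03 FPKM in WT libraries, without overlap.

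CEP170 had the largest difference of the family on the log2(FPKM + 1) scale. By the ratio of WT to KO mean FPKM, CEP135 (2.54) came before CEP170 (2.325). This subdistal appendage protein, which binds microtubules, is encoded on the minus strand of chromosome 1 (ENSG00000143702, positions 243124428 to 243255348 on GRCh38). It had 9.20, 8.39 and 9.10 FPKM in KO libraries, against 20.7, 21.4 and 19.9 FPKM in WT libraries, from 1579 to 1727 and 3618 to 3903 reads per library. The highest KO value was under 10 FPKM and the lowest WT value near 20 FPKM, and the log2 fold change was −1.13 (SE 0.06). Its paralog CEP170B had 14.9, 13.6 and 13.1 FPKM in KO libraries and 16.1, 13.9 and 19.1 FPKM in WT libraries, which overlapped, and was not called (log2 fold change −0.21, SE 0.11). The pseudogene CEP170P1 on chromosome 4 had 51 reads over the KO libraries and 93 over the WT libraries, against 4958 and 11360 for CEP170, so its own counted reads are few beside those of CEP170.

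Of the 6 tested appendage genes 3, CEP170 included, were called lower and 0 higher, beside 22.4% and 21.0% of all tested genes. CEP128, of the subdistal appendages, was called lower at 0.785 ± 0.083 FPKM in KO libraries and 1.54 ± 0.18 FPKM in WT libraries. CEP83, at the base of the distal appendages, was called lower at 1.07 ± 0.11 FPKM in KO libraries and 1.78 ± 0.18 FPKM in WT libraries. CEP164, at the outer part of the distal appendages, had 3476 reads over the KO libraries and 3476 over the WT libraries, with a log2 fold change of −0.01. CEP89, of the same appendages, had 3.24, 3.57 and 3.50 FPKM in KO libraries and 2.89, 2.86 and 3.11 FPKM in WT libraries. Its KO values were all above its WT values, but it was not called (log2 fold change 0.17, SE 0.07, limma adjusted p = 0.0854).

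Both genes of the centrosome linker had positive fold changes. CEP68, which holds the centrosomes together until mitosis, had 2.40, 2.04 and 2.32 FPKM in KO libraries, against 1.65, 1.48 and 1.64 FPKM in WT libraries. The groups did not overlap, and it was called higher (log2 fold change 0.33, SE 0.08). The call was lost without KO 1 or KO 3, with adjusted p of 0.0578 and 0.0527, and 8.78% of its exonic bases overlap RAB1A on the opposite strand, at a mean of 40.6 FPKM against 1.92 FPKM for CEP68. CEP250, the C-NAP1 protein that anchors the linker to the centriole, had 4.58, 4.31 and 3.32 FPKM in KO libraries and 3.75, 2.91 and 4.16 FPKM in WT libraries. The groups overlapped and it was not called.

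Genes that act in the cilium held the largest positive fold change of the family. Of 7 tested 1 was called higher and 4 lower, beside 21.0% and 22.4% of all tested genes. CEP19, which helps to recruit the ciliary transport machinery to the basal body, had 2.73, 2.11 and 2.11 FPKM in KO libraries, against 1.13, 1.20 and 1.42 FPKM in WT libraries. Every KO value was above every WT value, and it was called higher with a log2 fold change of 0.56 (SE 0.11), a KO to WT ratio of 1.85. It is the shortest member and was counted from few reads, 103, 80 and 77 in KO libraries and 42, 44 and 52 in WT libraries. CEP350, which binds CEP19 at the centriole, was called lower, with 2.14, 1.55 and 1.97 FPKM in KO libraries and 3.40, 3.51 and 3.04 FPKM in WT libraries. The partners thus differed in opposite directions, without overlap in either.

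CEP290, a transition zone protein mutated in Joubert syndrome and inherited blindness, had 0.920, 0.733 and 0.899 FPKM in KO libraries, against 1.89, 1.82 and 1.53 FPKM in WT libraries. Its groups did not overlap, and it was called lower with a log2 fold change of −0.57 (SE 0.10). CEP78, which acts in cilium formation and is mutated in cone-rod dystrophy with hearing loss, was called lower at 2.22 ± 0.11 FPKM in KO libraries and 3.76 ± 0.33 FPKM in WT libraries. CEP162, which helps to assemble the transition zone, was called lower at 0.809 ± 0.108 FPKM in KO libraries and 1.28 ± 0.18 FPKM in WT libraries, a call that was lost when KO 2, KO 3, WT 1 or WT 2 was left out. CEP41, which acts in tubulin glutamylation, was not called and had a log2 fold change of −0.0025, being at 1.94 ± 0.07 FPKM in KO libraries and 1.94 ± 0.12 FPKM in WT libraries.

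Of 5 satellite and microtubule genes of the family 2 were called lower and 0 higher, beside 22.4% and 21.0% of all tested genes. CEP70, which promotes microtubule organisation, was called lower at 1.52 ± 0.33 FPKM in KO libraries and 2.59 ± 0.29 FPKM in WT libraries. CEP72, a satellite protein that recruits the spindle pole protein kizuna, was called lower at 3.88 ± 0.08 FPKM in KO libraries and 4.75 ± 0.30 FPKM in WT libraries, and lost its call without KO 1, KO 2, KO 3 or WT 1. CEP131, another satellite protein, had 4.07, 3.43 and 3.71 FPKM in KO libraries and 4.14, 2.89 and 3.85 FPKM in WT libraries, which overlapped. CEP95 had 3.47, 3.46 and 3.50 FPKM in KO libraries and 3.40, 3.61 and 2.88 FPKM in WT libraries, which overlapped as well, and 6.29% of its exonic bases overlap DDX5 on the opposite strand at a mean of 84.1 FPKM. CEP85L, the paralog of CEP85, had a log2 fold change of −0.23 and was not called. Because no strand setting is stated, reads of overlapping genes on opposite strands cannot be assigned with certainty. Besides CEP68 and CEP95, this touches CEP44, CEP63, CEP76, CEP290 and CEP295, which share 2.63% to 7.60% of their exonic bases with more abundant opposite-strand genes (FBXO8, ANAPC13, PSMG2, C12orf29 and TAF1D).

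CEP55 works at the end of cell division, where it recruits the ALIX and TSG101 proteins to the midbody for abscission, and is expressed mostly by dividing cells. It had 18.1, 16.4 and 20.9 FPKM in KO libraries, against 29.3, 31.1 and 26.2 FPKM in WT libraries. The groups did not overlap, and it was called lower with a log2 fold change of −0.62 (SE 0.10), from 921 to 1134 reads per KO library and 1423 to 1696 reads per WT library. Of 12 proliferation markers tested, 4 were called lower (33.3%), 1 higher (8.33%) and 7 not, beside 22.4% lower and 21.0% higher of all tested genes. After the correction for GC and length described below 6 were lower and 1 higher. CDK1, the mitotic kinase, was at 14.1 ± 1.7 FPKM in KO libraries and 26.9 ± 3.9 FPKM in WT libraries (limma adjusted p = 0.00144). TOP2A was at 46.6 ± 1.9 and 67.2 ± 6.3 FPKM in KO and WT libraries, MKI67 at 26.0 ± 1.0 and 31.9 ± 1.0 FPKM, and PCNA, which was higher, at 215.6 ± 12.5 and 161.5 ± 12.7 FPKM. The cell cycle phase of the cultures is not given, and its part in the CEP values was not tested.

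**Figure D2:**
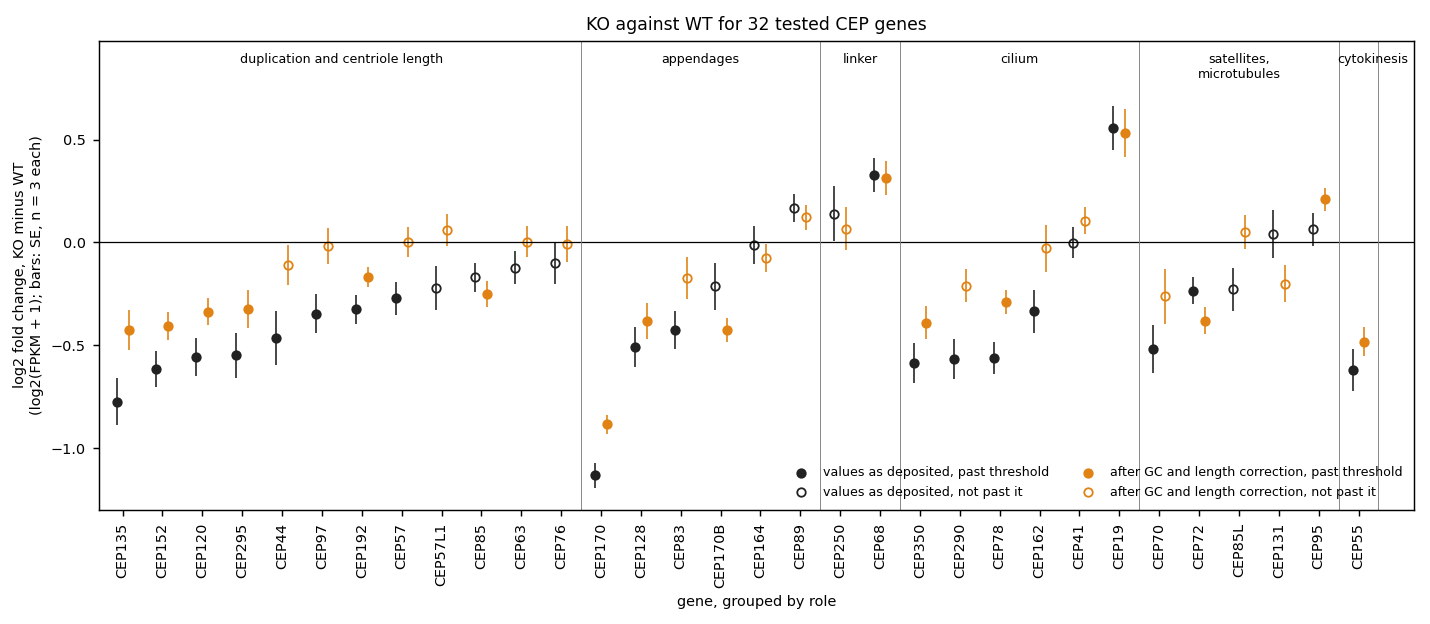
Log2 fold change (KO minus WT, log2(FPKM + 1), bars SE, n = 3 each) of 32 of the 33 tested CEP genes by role, in black from the values as deposited and in orange after removal of GC and length trends, filled where past the threshold. CEP170 is lowest at −1.13 and CEP19 highest at 0.56, and most orange points of the duplication group lie nearer to 0 than the black ones.

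Promoter windows are shown for the 4 members with the largest negative fold changes on the log2(FPKM + 1) scale. CEP19, which had the largest positive one, is shown because it differed in the other direction. By the ratio of WT to KO mean FPKM, CEP295 (2.137) and CEP290 (2.05) came before both CEP152 and CEP55 (1.564). The choice of these 4 thus depends on the scale, and the windows of CEP295 and CEP290 are not shown. Each window shown is RefSeq's on GRCh38.p14, 250 bases before and 50 after the annotated start, 5′ to 3′ on the strand of the gene. Capitals mark matches, on either strand, to the CHR element TTTGAA (an element of cell cycle promoters bound by the DREAM complex), the CCAAT box CCAAT (bound by NF-Y) or the NRF1 site, read as GCGCA, any base and GCGC. These motifs do not overlap each other in the windows shown.
CEP170, chr1:243255232-243255531, minus strand: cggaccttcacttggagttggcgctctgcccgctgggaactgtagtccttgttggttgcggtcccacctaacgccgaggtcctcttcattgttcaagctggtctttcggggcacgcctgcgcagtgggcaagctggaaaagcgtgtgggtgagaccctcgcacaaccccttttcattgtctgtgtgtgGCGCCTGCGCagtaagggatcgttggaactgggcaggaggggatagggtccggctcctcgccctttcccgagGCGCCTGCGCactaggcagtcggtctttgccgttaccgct
CEP135, chr4:55948695-55948994, plus strand: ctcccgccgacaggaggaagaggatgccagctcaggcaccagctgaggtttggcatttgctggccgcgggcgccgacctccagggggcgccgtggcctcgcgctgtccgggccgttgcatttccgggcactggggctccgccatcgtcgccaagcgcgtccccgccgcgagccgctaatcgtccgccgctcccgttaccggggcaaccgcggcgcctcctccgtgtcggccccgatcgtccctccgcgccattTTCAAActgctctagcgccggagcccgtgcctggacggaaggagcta
CEP55, chr10:93496362-93496661, plus strand: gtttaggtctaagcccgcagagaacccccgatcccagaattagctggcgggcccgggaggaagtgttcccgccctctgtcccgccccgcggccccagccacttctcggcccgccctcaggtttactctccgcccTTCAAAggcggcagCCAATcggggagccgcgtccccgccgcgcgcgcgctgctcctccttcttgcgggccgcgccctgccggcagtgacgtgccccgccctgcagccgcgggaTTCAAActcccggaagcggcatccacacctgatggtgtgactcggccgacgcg
CEP152, chr15:48811020-48811319, minus strand: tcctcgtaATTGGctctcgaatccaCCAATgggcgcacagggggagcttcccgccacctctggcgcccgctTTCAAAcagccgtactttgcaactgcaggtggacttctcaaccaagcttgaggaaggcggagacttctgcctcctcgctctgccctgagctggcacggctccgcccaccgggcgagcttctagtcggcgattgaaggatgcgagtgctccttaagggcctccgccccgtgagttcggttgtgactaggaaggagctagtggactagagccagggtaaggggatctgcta
CEP19, chr3:196712201-196712500, minus strand: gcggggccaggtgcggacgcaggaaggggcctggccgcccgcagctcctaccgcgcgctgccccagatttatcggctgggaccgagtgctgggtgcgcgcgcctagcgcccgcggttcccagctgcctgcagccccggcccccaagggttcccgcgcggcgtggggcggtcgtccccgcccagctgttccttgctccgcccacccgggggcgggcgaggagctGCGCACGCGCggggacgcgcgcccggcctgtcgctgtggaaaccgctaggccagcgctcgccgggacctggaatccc
CEP55 held 2 CHR elements, 1 of them next to the start site, and 1 CCAAT box. CEP152 held 1 CHR element and 2 CCAAT boxes, CEP135 held 1 CHR element just after the start site, CEP170 held 2 NRF1 sites and CEP19 held 1 NRF1 site. Windows were found for 31 of the 36 members, some with more than 1 start. A CHR element was in 14 of the 31 (45.2%), against 18.2% of all 27305 symbols with a window. Those symbols were not limited to protein-coding or tested genes. The CHR element was in 10 of the 17 members called lower and in 3 of the 12 tested members not called lower. The same split was not made over all tested genes, so these counts have no background and nothing is drawn from them. A CCAAT box was in 54.8% of the members and 39.7% of all symbols, and an NRF1 site in 19.4% of the members and 6.98% of all symbols. Such a match is a description of these letters and not a bound site.

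The rule asked for attention to gene length, which divides every FPKM. The deposited length equalled the union of all annotated exons in GENCODE release 29 for 58735 of 58735 genes. Tested CEP genes were long, with lengths of 2201 (CEP19) to 16295 (CEP250) bases and a median of 8168, against a median of 4574 for all tested genes, and 19 of the 33 fell in the longest quintile of tested genes. The union exceeded the longest protein-coding transcript by a ratio of up to 2.56 (CEP95), while it equalled that transcript for CEP19. A level per kilobase is therefore lowered for genes with many alternative exons, such as CEP95, CEP164 (2.29) and CEP57 (2.23), while the ratio of KO to WT FPKM of a gene is not touched, since the same length divides all its libraries.

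Gene length followed the fold changes of the family only weakly. Across the 33 genes the Spearman correlation of log2 fold change with gene length was −0.11, and across all 12000 tested genes it was −0.14 (genes are not replicates, and all share the same 6 libraries). Of the 16 shorter members 8 were called lower and 1 higher, with a median of −0.23. Of the 17 longer members 10 were called lower and 1 higher, with a median of −0.35. Beside these counts stand 22.4% lower and 21.0% higher of all tested genes. In the longest quintile of all tested genes, 32.6% were called lower and the median was −0.08; of the 19 members in it 10 were called lower, with a median of −0.33. The genomic span, which counts introns, followed the fold changes more closely within the family (Spearman −0.43, and −0.14 over all tested genes). In the longest quintile of spans 9 of 13 members were called lower, against 30.4% of all tested genes there. CEP19 was the only member in the shortest quintile, where 21.3% of all tested genes were called higher.

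Base composition followed the fold changes more closely than length. The longest transcript of the tested CEP genes had a GC content of 35.4% (CEP44) to 66.2% (CEP170B), with a median of 41.4%, against 48.3% for all tested genes. The Spearman correlation of log2 fold change with GC content was 0.65 across the 33 genes and 0.44 across the 11992 tested genes with a transcript sequence. The first 120 coding bases of members at either end of that range, from the longest protein-coding transcript in GENCODE 29, show the contrast, with G and C in capitals.
CEP290, 46 of 120 bases G or C: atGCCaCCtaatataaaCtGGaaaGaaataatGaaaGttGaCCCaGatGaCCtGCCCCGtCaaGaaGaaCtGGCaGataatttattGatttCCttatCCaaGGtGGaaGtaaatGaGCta
CEP135, 49 of 120 bases G or C: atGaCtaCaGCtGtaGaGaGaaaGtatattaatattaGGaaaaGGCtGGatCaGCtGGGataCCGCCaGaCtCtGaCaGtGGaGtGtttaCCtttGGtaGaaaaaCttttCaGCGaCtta
CEP170B, 80 of 120 bases G or C: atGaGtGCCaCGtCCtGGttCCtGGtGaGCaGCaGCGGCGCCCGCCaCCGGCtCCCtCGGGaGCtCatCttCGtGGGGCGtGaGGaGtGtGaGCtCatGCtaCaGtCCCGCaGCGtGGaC
CEP131, 83 of 120 bases G or C: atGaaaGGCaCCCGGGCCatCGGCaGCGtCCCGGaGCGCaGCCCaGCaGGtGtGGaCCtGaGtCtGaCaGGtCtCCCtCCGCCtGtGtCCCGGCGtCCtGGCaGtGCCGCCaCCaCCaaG
CEP290 and CEP135, with 35.1% and 38.2% GC over the whole coding sequence, were called lower. CEP170B and CEP131, with 67.2% and 65.1%, were not called. After the correction described below CEP290 was no longer called and CEP170B was called lower, while CEP135 stayed lower and CEP131 not called. CEP44, with the lowest GC content, is not shown and was called lower before the correction only.

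**Figure D3:**
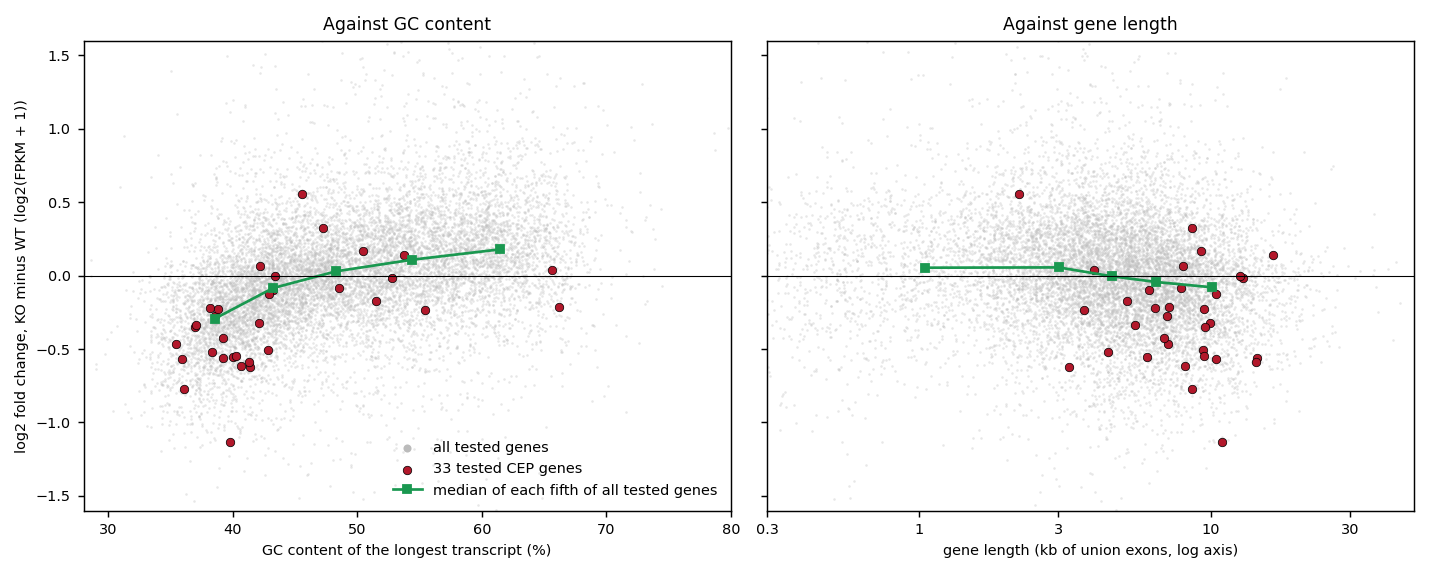
Log2 fold change (KO minus WT, log2(FPKM + 1)) against GC content on the left and gene length on the right, with all tested genes in grey, the 33 tested CEP genes in red and the medians of quintiles of all tested genes in green; 111 and 443 genes lie outside the panels. The CEP genes under 45% GC sit mostly below 0, as does the green line there, while the order along the length axis is weaker (Spearman −0.11 across the CEP genes, against 0.65 for GC content).

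Split by GC content, members under 45% GC were mostly called lower and those from 45% upwards mostly not called. Under 40% GC, 11 of 13 members were called lower and 0 higher, with a median of −0.46. Of the 1894 tested genes in this range 52.5% were called lower and 3.54% higher, and the median was −0.32. Between 40 and 45% GC, 6 of 10 members were called lower and 0 higher, with a median of −0.42. Of 2590 tested genes there 29.7% were called lower and 10.6% higher, and their median was −0.11. From 45% GC upwards 1 of 10 members was called lower (CEP72) and 2 higher (CEP19 and CEP68), with a median of 0.01, and of 7508 tested genes 12.2% were called lower and 29.1% higher. Other genes of the same low GC content were thus lower too, by less at the median. Whether base composition plays a part in the CEP values was not tested. The correction below cannot decide it, because it removes any smooth KO to WT difference along GC content, whatever its source. After it the medians of the 3 ranges were −0.17, −0.25 and −0.10.

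Libraries of 1 genotype differed among themselves as well. Relative to each gene's mean over 6 libraries, the median deviation of the 33 genes was −0.09, −0.18 and −0.15 in KO libraries and 0.18, 0.18 and 0.09 in WT libraries. Among the WT libraries, WT 3 gave the lowest value for 23 of the 33 genes, and among the KO libraries KO 2 did so for 19. The same counts over all tested genes were not made. The deviation from the WT mean correlated with GC content across the 33 genes at −0.19, −0.49 and 0.64 in WT 1, WT 2 and WT 3. The same measure within KO was 0.01, 0.55 and −0.38 in KO 1, KO 2 and KO 3. Low-GC members were hence relatively low in WT 3 and KO 2 among the libraries of their genotype, while KO 1 showed no such order. Over all tested genes the correlations were −0.06, −0.59 and 0.64 in WT 1, WT 2 and WT 3. Within KO they were 0.17, 0.21 and −0.34 in KO 1, KO 2 and KO 3. The order in the WT libraries was thus shared by all tested genes and not particular to the CEP genes. The deviations of 3 libraries from their own mean have to balance, so these values are not independent of each other.

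**Figure D4:**
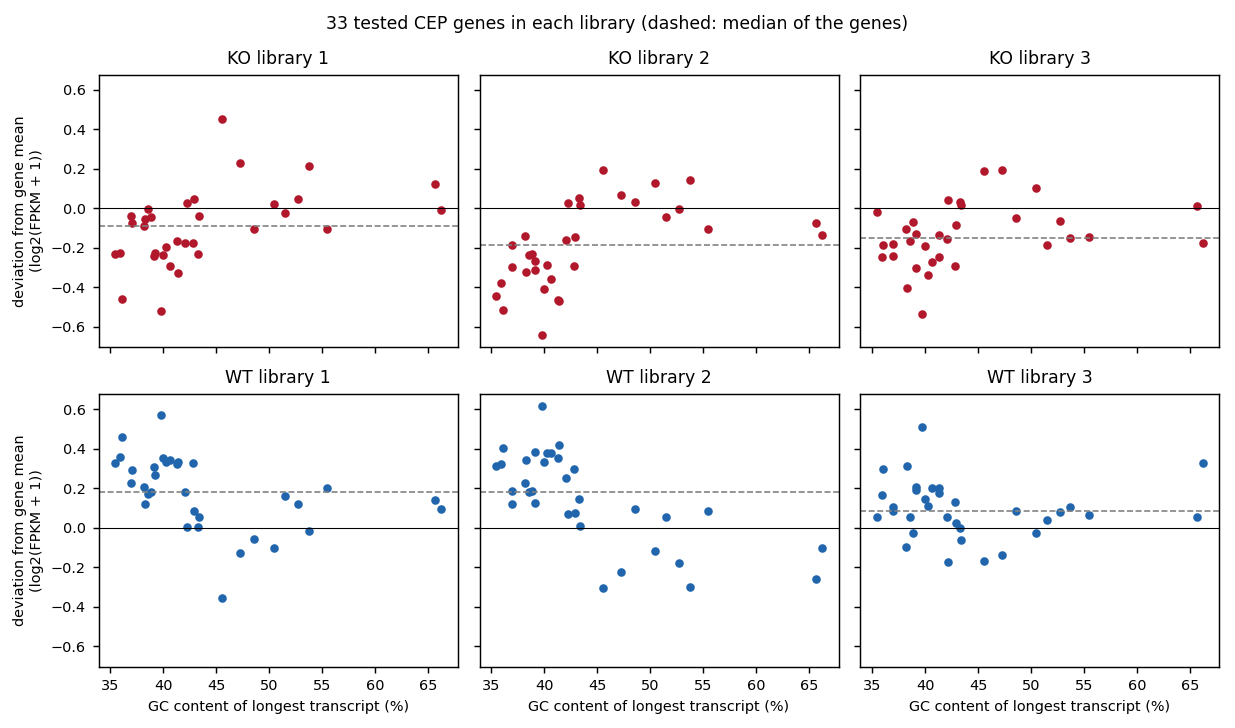
Deviation of each of the 33 tested CEP genes from its mean over the 6 libraries (log2(FPKM + 1)) against GC content, with KO libraries above, WT libraries below and the median dashed. The medians are −0.09, −0.18 and −0.15 in KO and 0.18, 0.18 and 0.09 in WT, WT 3 being the lowest of the WT libraries.

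Values from which a smooth trend with GC content and with log gene length had been removed in each library gave a median nearer to 0, and 23 of the 33 fold changes were still negative. Of the 33 genes 13 were called lower and 3 higher (22.9% and 20.7% of the 11992 genes in that fit), with a median of −0.17. Called lower with and without the correction were 11 genes, namely CEP55, CEP72, CEP78, CEP120, CEP128, CEP135, CEP152, CEP170, CEP192, CEP295 and CEP350. CEP170 kept the largest negative value, with a corrected log2 fold change of −0.88 (SE 0.05), followed by CEP55 at −0.48 and CEP170B at −0.43, while CEP19 was at 0.53. Some values moved away from 0 under the correction, among them those of CEP72 (−0.38, against −0.24 before), CEP170B and CEP85. The 7 genes no longer called were CEP44, CEP57, CEP70, CEP83, CEP97, CEP162 and CEP290, all under 40% GC, with corrected values of −0.26 (CEP70) to 0.0026 (CEP57). CEP85 and CEP170B, both over 50% GC, became called lower, and CEP95 became called higher at 0.21. CEP19 and CEP68 were called higher in either fit. Removing the length trend alone left 17 genes lower and 3 higher, beside 2665 lower and 2450 higher of the 12000 tested genes.

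The genes that work with the CEP proteins were read from lists written down with earlier results of these data known, and no list was tested as a set. The shares to set beside them are 22.4% lower and 21.0% higher of all tested genes, and 22.9% and 20.7% after the correction. Of 25 tested genes of centriole duplication outside the CEP family, 9 were lower (36%) and 3 higher (12%), with a median of −0.08. PLK4, the kinase that starts duplication, fell to 4.43 ± 0.13 FPKM in KO libraries, against 8.76 ± 0.47 FPKM in WT libraries (limma adjusted p = 0.000124). SASS6, the cartwheel protein, fell to 2.45 ± 0.53 FPKM in KO libraries, against 5.31 ± 0.76 FPKM in WT libraries (limma adjusted p = 0.00229), and CCP110, the capping partner of CEP97, to 2.06 ± 0.25 FPKM against 4.90 ± 0.40 FPKM (limma adjusted p = 0.000311). TUBE1, epsilon-tubulin, fell to 1.04 ± 0.06 FPKM in KO libraries, against 2.10 ± 0.18 FPKM in WT libraries. STIL, which links PLK4 to SASS6, was at 6.22 ± 0.59 FPKM in KO libraries and 8.22 ± 1.07 FPKM in WT libraries (limma adjusted p = 0.0307) and was not called after the GC and length correction. The duplication list had 6 lower and 3 higher after that correction.

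Centriolar satellites had 9 lower (64.3%) and 0 higher of 14 (6 and 1 after correction), with a median of −0.35, beside 22.4% and 21.0% of all tested genes. PCM1, the satellite scaffold, fell to 4.82 ± 0.45 FPKM in KO libraries, against 7.75 ± 0.51 FPKM in WT libraries (limma adjusted p = 0.00129), and CCDC18 fell to 0.958 ± 0.022 FPKM in KO libraries, against 2.53 ± 0.06 FPKM in WT libraries, although 12% of its exonic bases overlap TMED5 on the opposite strand, at a mean of 8.26 FPKM. Appendage and linker genes had 6 lower (50%) and 0 higher of 12 (4 and 0 after correction). Among them NIN, the subdistal appendage protein ninein, fell to 5.36 ± 0.44 FPKM in KO libraries, against 8.14 ± 0.43 FPKM in WT libraries (limma adjusted p = 0.00154). Of 4 genes also called CEP that carry other symbols in this annotation, 3 were tested. CDK5RAP2 (also called CEP215) was not called, at 8.87 ± 0.61 FPKM in KO libraries and 8.70 ± 0.21 FPKM in WT libraries, and FGFR1OP was under the filter. CNTRL (also called CEP110) and FOPNL (also called CEP20) fell, CNTRL to 0.664 ± 0.180 FPKM in KO libraries against 1.42 ± 0.06 FPKM in WT libraries and FOPNL to 12.4 ± 0.5 FPKM against 18.2 ± 2.8 FPKM.

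Pericentriolar material, gamma-tubulin and augmin genes had 6 higher and 5 lower of 23 and a median of −0.01 (4 higher and 6 lower after correction), shares of 26.1% and 21.7% beside 21.0% and 22.4% of all tested genes. TUBGCP2, a subunit of the gamma-tubulin complex, rose to 37.8 ± 1.8 FPKM in KO libraries, against 25.9 ± 1.0 FPKM in WT libraries (limma adjusted p = 0.000747). The augmin subunits HAUS3 and HAUS6 fell, HAUS6 to 11.4 ± 1.2 FPKM in KO libraries against 20.2 ± 2.0 FPKM in WT libraries. PCNT, pericentrin, was at 7.61 ± 0.62 FPKM in KO libraries and 8.67 ± 0.90 FPKM in WT libraries and was not called (limma adjusted p = 0.180; 0.0128 and lower after correction).

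Transition zone and intraflagellar transport genes, the cilium genes downstream of the basal body, had 9 higher and 8 lower of 34, with a median of 0.09 (8 and 2 after correction). These shares of 26.5% and 23.5% lay near the 21.0% and 22.4% of all tested genes. TMEM216, a transition zone protein, fell to 0.0247, 0.148 and 0.178 FPKM in KO libraries, against 3.23, 3.15 and 3.23 FPKM in WT libraries, from 14 reads over the KO libraries and 380 over the WT libraries. Its limma adjusted p was 2.42e-05. IFT43 rose to 2.94 ± 0.03 FPKM in KO libraries, against 1.38 ± 0.21 FPKM in WT libraries, and IFT140 to 2.37 ± 0.11 FPKM in KO libraries, against 1.31 ± 0.14 FPKM in WT libraries (limma adjusted p of 0.000806 and 0.00214). Other genes of this transport had negative fold changes and were called lower, among them WDR35 at −0.37 and TTC21B at −0.38, neither of them called after correction. Cytokinesis and midbody genes had 8 lower (53.3%) and 3 higher (20%) of 15 (8 and 4 after correction). TSG101, which CEP55 recruits, rose to 20.7 ± 0.9 FPKM in KO libraries, against 16.3 ± 1.3 FPKM in WT libraries (limma adjusted p = 0.00994). PDCD6IP, the gene of ALIX, was at 20.7 ± 1.9 FPKM in KO libraries and 20.6 ± 2.2 FPKM in WT libraries and was not called (higher after correction). TSG101, PDCD6IP, CDK5RAP2, WDR35 and TTC21B were named after their values were seen. KIF14 fell to 2.49 ± 0.35 FPKM in KO libraries, against 6.30 ± 0.68 FPKM in WT libraries, ECT2 to 19.7 ± 1.9 FPKM against 36.5 ± 3.5 FPKM and KIF23 to 9.79 ± 0.59 FPKM against 15.3 ± 1.3 FPKM (limma adjusted p of 0.000344, 0.00067 and 0.00127).

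**Figure D5:**
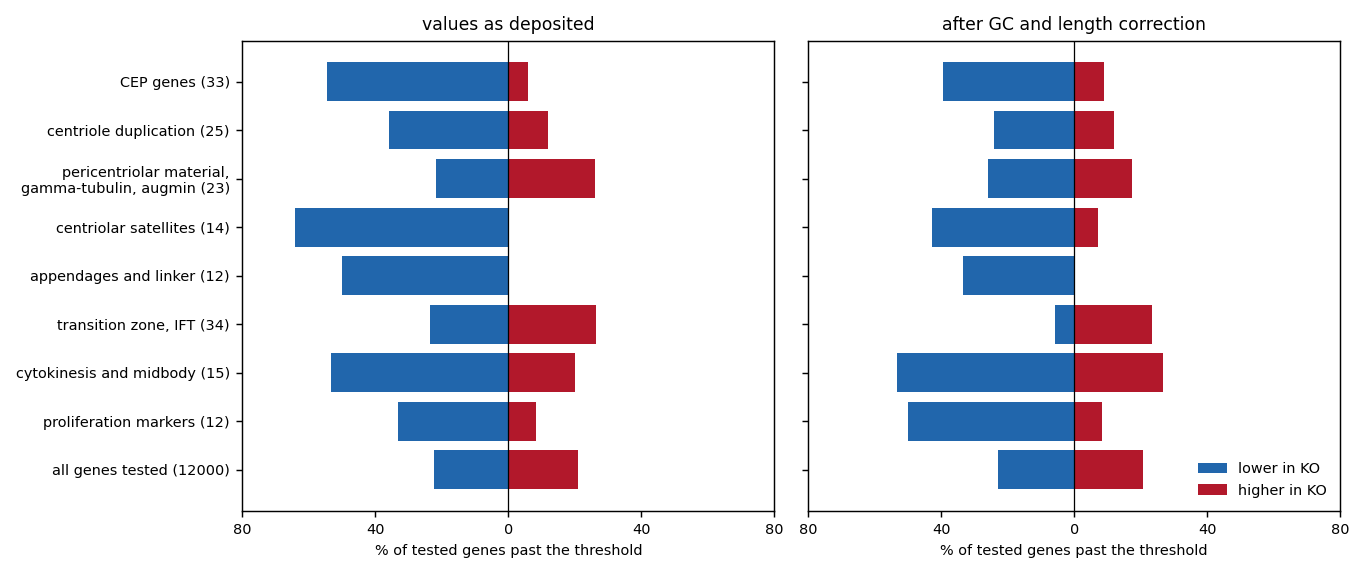
Percentage of tested genes called lower (left of 0) and higher (right of 0) in KO for the CEP genes, 6 lists of other centrosome, cilium and cytokinesis genes, proliferation markers and all tested genes, with the number tested in brackets, from deposited values on the left and after GC and length correction on the right. For CEP genes the lower share is 18 of 33 on the left and 13 of 33 on the right, beside 22.4% and 22.9% of all tested genes.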

How the data were processed

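RNA-seq of 6 HT1080 libraries, 3 KO and 3 WT, was analysed from 1 table. The authors deposited FPKM values per gene with gene length and position. No aligner, counting tool or strand setting was found in the labels. Mouse builds (GRCm38, mm10) appear in the submitters' processing notes, but the starts and ends of 58735 of 58735 genes equal human GENCODE release 29, so positions are on GRCh38. Values times gene length and 1 factor per library were whole reads, within 0.02 of a read, for 100% of the values above 0. Reads give counting error only.

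FPKM are not counts, so limma 3.58.1 (R 4.3.3; lmFit and eBayes with trend) was run on log2(FPKM + 1), pseudocount 1, for 12000 genes (mean FPKM no lower than 1), two-sided, with genotype as the only term, Benjamini-Hochberg adjustment over those genes and a threshold of 0.05. GC and length trends were removed with natural splines of GC content and log length fitted to each library's deviations from the gene means. The fit and the correction were checked on simulated data. The members and lists were chosen with earlier results of these data known. Given in full are the 6 tested members with the largest positive, the 6 with the largest negative fold change and the 4 with the highest mean, and up to 3 called genes per list with the smallest adjusted p, besides ADGRG1, CDK1, MKI67, TOP2A, PLK4, PCNT, STIL and SASS6. For 1 tested member, counted in all totals, values are not reported here. Alternatives were a pseudocount of 0.1, no filter or a filter at 5 FPKM, quantile normalization, limma-voom on recovered reads, the corrections, a replicate block and leaving out each library. Lists fixed for other cell types served to check the cell line. Endothelial markers summed to at most 1.59 FPKM in any library and neural ones to at most 2.27 FPKM.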

Additional observations from a re-analysis of the deposited data

How the results depend on the processing

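The count of CEP genes called lower was 18 and ranged from 13 to 19 with 1 library left out, and the count called higher was 2 and ranged from 1 to 2, being 1 without KO 1 or KO 3. Over all tested genes the lower calls then ranged from 1936 to 2715 and the higher calls from 1853 to 2657. The median of the CEP genes, −0.27, ranged from −0.33 to −0.24, the correlation with gene length from −0.11 to −0.09 and that with GC content from 0.58 (without WT 2) to 0.68. With the filter at 5 FPKM only 6 members remained, 2 lower and 0 higher. Their median was −0.19 and their correlation with length 0.37. Over all genes 1639 were then higher and 1564 lower, against 2525 and 2682. The pooled lists of other centrosome, cilium and cytokinesis genes then had 10 higher and 15 lower. In the main fit they had 21 and 45 of 123 tested. Fewer genes were tested at the filter of 5 FPKM. The median of the CEP genes was −0.38 under pseudocount 0.1 and −0.44 under limma-voom. Neither adds 1 to the FPKM, a step that understates the changes of low genes. The correlation with length was −0.16 in either, and the cause of that shift was not tested. After the GC and length correction, with or without the block, the median was −0.17, the correlation with length 0.0404 and that with GC content 0.115; with the length trend alone removed, the correlation with length was 0.0124. These last shifts follow from the corrections' construction. Without a filter 14 CEP genes were called lower and 2 higher, and over all genes 2471 and 2503. Quantile normalization gave 16 lower and 3 higher, and over all genes 2610 and 2572. Under limma-voom 19 were lower and 2 higher, and over all genes 3145 and 2407.

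Same-numbered KO and WT libraries did not deviate together (correlations of −0.07, −0.18 and −0.35), and those with unlike numbers gave −0.21 to 0.37. Deviations within a genotype have to balance, so these values cannot show whether libraries were prepared in pairs. The labels state no pairing. The fit with the replicate block called 13 CEP genes lower and 2 higher, and over all genes 1966 lower and 1900 higher. With the correction it called 11 and 2, over all genes 2196 lower and 1998 higher, and 24 lower in the pooled lists.

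Signs turned for 8 members, of which CEP57, CEP85L and CEP57L1 had been at −0.27, −0.23 and −0.22 and the others nearer to 0. After the correction, with and without the block, CEP131 was at −0.20, CEP41 at 0.105, CEP57 at 0.0026, CEP57L1 at 0.0599, CEP63 at 0.0026 and CEP85L at 0.0488. With the length trend alone removed CEP164 was at 0.0728 and CEP41 at 0.0826, and under quantile normalization they were at 0.0287 and 0.0166. With 1 library left out, CEP131 ranged from −0.079 (without WT 2) to 0.122, CEP164 from −0.106 to 0.0433 (without WT 1), CEP41 from −0.033 to 0.023 (without WT 1) and CEP95 from −0.0078 (without WT 3) to 0.115. Of these, only CEP57 had been called before the correction. ADGRG1 stayed lower in every fit that tested it. The planned negative binomial count tests (quasi-likelihood with TMM or median-ratio scaling, and a Wald test) were not run. Recovered reads were tested with limma-voom alone. Depth limits the low members: CEP19 was counted from 42 to 103 reads per library.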

Other observations

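Several CEP genes share a start region with a gene on the opposite strand, and the neighbours did not always move with them. CEP57L1 starts 291 bases from SESN1, a stress gene known as a p53 target. SESN1 rose to 12.2 ± 0.8 FPKM in KO libraries, against 4.46 ± 0.67 FPKM in WT libraries (SD, n = 3 each; limma adjusted p = 0.000145), while CEP57L1 was not called and had a log2 fold change of −0.22. CEP89 starts 218 bases from FAAP24, a Fanconi anaemia pathway gene, which rose to 2.75 ± 0.15 FPKM in KO libraries, against 1.76 ± 0.18 FPKM in WT libraries (limma adjusted p = 0.00493). CEP290 starts 80 bases from TMTC3, which fell to 3.56 ± 0.49 FPKM in KO libraries, against 6.43 ± 0.97 FPKM in WT libraries (limma adjusted p = 0.00366). CEP170 starts 686 bases from SDCCAG8, a satellite gene, which fell to 3.97 ± 0.55 FPKM in KO libraries, against 5.30 ± 0.12 FPKM in WT libraries (limma adjusted p = 0.0163). CEP44 and its neighbour FBXO8 had log2 fold changes of −0.46 and 0.12, and ANAPC13, which starts 995 bases from CEP63, fell to 21.5 ± 2.3 FPKM in KO libraries, against 33.5 ± 2.6 FPKM in WT libraries. These neighbours were chosen by distance, within 1000 bases, and those named were picked after their values were seen.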
